A study of Mus musculus with 12 samples.

Results

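A set of 10 genes known as markers of Sertoli cells and of other somatic cells of the testis was examined in C18-4 cells, a line labelled and used as a model of mouse spermatogonial stem cells. They were chosen by name and were Wt1, Sox9, Gata4, Gata6, Nr5a1, Amh, Fshr, Clu, Kitl and Inhbb, out of a table of 17576 genes. Of the 10, 9 were listed there, and Fshr, which encodes the receptor for follicle-stimulating hormone, was not analysed here. Their Entrez identifiers were 22431 (Wt1), 20682 (Sox9), 14463 (Gata4), 14465 (Gata6), 26423 (Nr5a1), 11705 (Amh), 12759 (Clu), 17311 (Kitl) and 16324 (Inhbb). RNA-seq was done on 12 libraries in 4 groups of 3. The knockdown group, labelled C18_5251KD and written KD below, received a mix of shRNAs against lncRNA5251 in the lentivirus vector LV3, and its control 3NC the same vector with a non-targeting shRNA. The overexpression group, labelled C18_5251OV and written OV, received the lncRNA5251 sequence in the vector LV5, and its control 5NC received LV5 alone. All 4 groups were stably transfected cells of the same immortalized line grown in serum-containing medium, and the label gives the strain as "IRC mouse". Knockdown and overexpression therefore differ in their vector as well as in lncRNA5251, whose own level was not analysed here. Nothing in the labels says whether the 3 libraries of a group came from separate cultures, so p-values measure the spread between these libraries only.

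Sertoli cells are the somatic cells that line the seminiferous tubule and nurse the germ cells. Their fate is set in the gonadal ridge by transcription factors, among which WT1, GATA4, GATA6 and NR5A1 (SF-1) act early in the somatic gonad and SOX9 commits the cells to the Sertoli lineage. The differentiated cells secrete or display products that act on germ cells and other tissues, such as anti-Müllerian hormone (AMH), clusterin (CLU), the ligand of the KIT receptor (KITL) and inhibin B, whose beta subunit is encoded by Inhbb. In a culture of spermatogonia alone, these genes mark what a somatic cell would contribute. Several of them are used by other tissues too, since Clu and Kitl are expressed in many epithelial and stromal cells and Wt1 in mesothelium and kidney.

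The table names no unit, and its values were read as RPKM because the study's methods describe that unit. RPKM is the number of reads scaled to the length of the gene and to the size of the library, which allows genes of different length to be compared. Read numbers were not used here, so depth in reads is unknown. Summed over genes, a library had from 533099 to 580920 RPKM, and Spearman's correlation between libraries of a group was between 0.987 and 0.990 across genes.

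The 10 markers did not share 1 level. Wt1, a zinc finger transcription factor, was the highest, with 49.8 RPKM in the lowest library, a median of 51.3 and 57.5 in the highest, and its mean lay above that of 89.3% of all genes listed. Gata6 came next, from 11.8 to 23.7 RPKM with a median of 17.4, above 71.9% of genes. Clu ranged from 2.40 to 8.24 RPKM (median 6.48) and Gata4 from 3.98 to 6.77 (median 5.66), each close to the middle of the table, where the median gene had a mean of 5.20 RPKM. Kitl was low but present in every library, from 1.10 to 1.84 RPKM. Inhbb stayed below 1 RPKM throughout, from 0.11 to 0.92, with every library above 0.

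The remaining 3 listed markers were at or near 0. Sox9, the HMG-box factor of Sertoli fate, was at 0 in 8 of 12 libraries and reached 0.03 RPKM at most. Nr5a1, the nuclear receptor that controls steroidogenic genes, was also at 0 in 8 of 12 libraries, with a highest value of 0.04. Amh was at 0 in 3 libraries and reached 0.15 RPKM. The somatic transcription factors thus split into a measured set (Wt1, Gata6, Gata4) and a set at or near 0 (Sox9, Nr5a1) in all 4 groups, and levels this low do not show that a gene is silent in every cell.

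**Figure D1:**
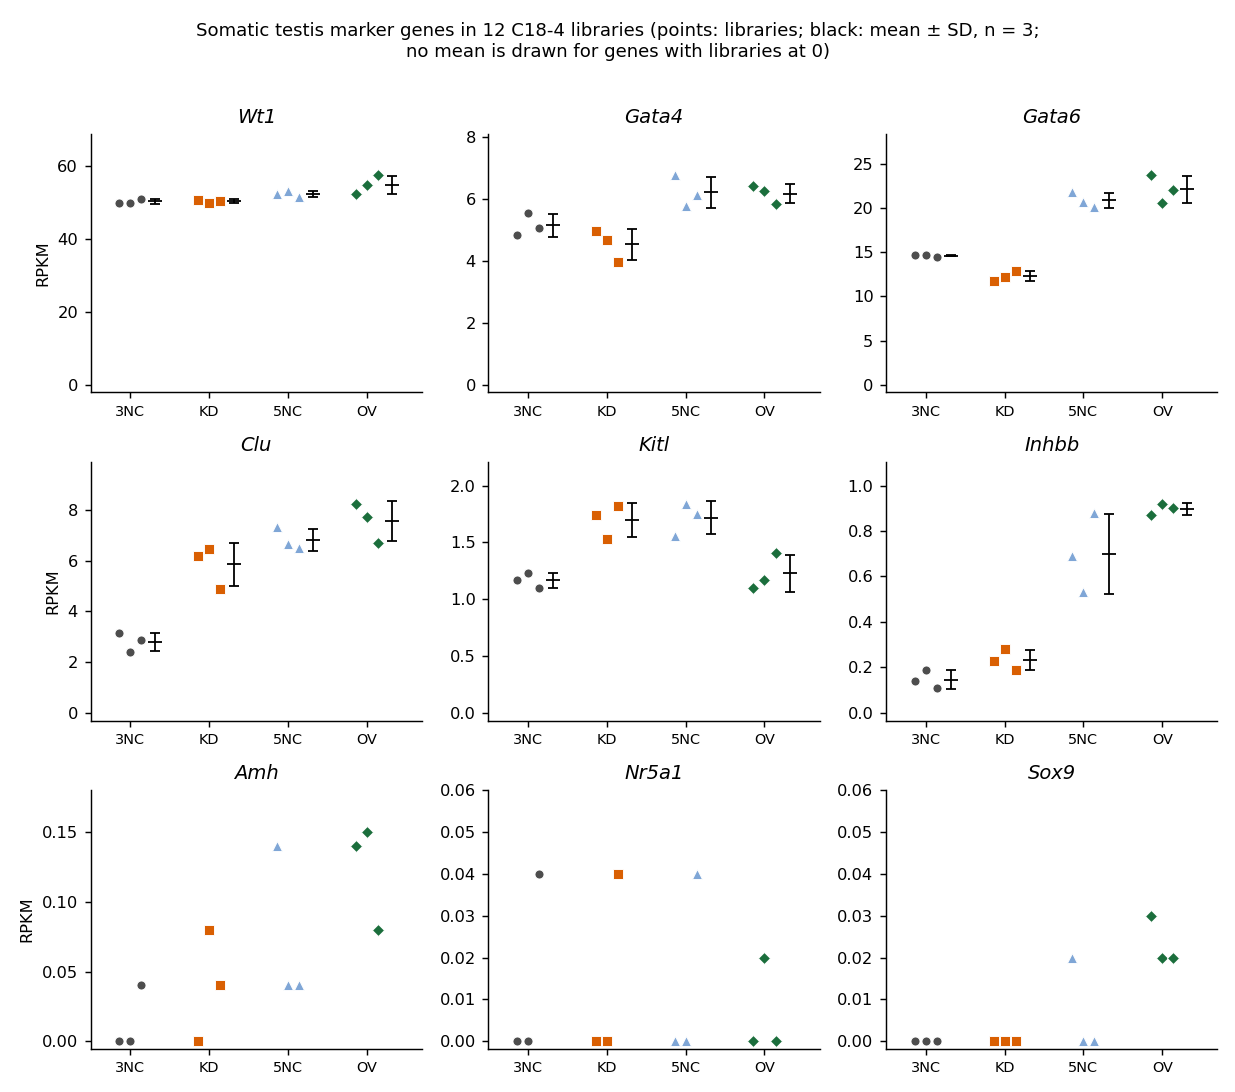
RPKM of the 9 listed marker genes (vertical axes, each starting at 0) in the groups 3NC, KD, 5NC and OV, with 1 point per library and the mean ± SD of 3 libraries in black where no library was at 0. Wt1 is near 50 RPKM in every library, Gata6 and Inhbb are higher in both LV5 groups than in both LV3 groups, Clu is lowest in 3NC, and Kitl is higher in KD and 5NC than in 3NC and OV.

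Markers of other cells were examined beside these genes, in lists chosen with earlier results of these data known. Of 20 further Sertoli markers, 18 were listed and 12 of them stayed below 1 RPKM in every library. Among these, named after their values were seen, were Dhh, a hedgehog ligand, at 0.30 RPKM at most, Dmrt1, a transcription factor of male fate, at 0.03 at most, and the tight junction gene Cldn11, at 0 in 11 of 12 libraries. The highest means in that list belonged to genes with broad expression, Krt18 (73.1 RPKM), a keratin of simple epithelia, and the growth factor gene Pdgfa (16.8), followed by Espn (2.27) and Sox8 (2.003). Of 12 Leydig and steroidogenic genes 7 were listed, and the enzyme genes Hsd3b1, Hsd3b6, Hsd17b3 and Hsd11b1 were among those not analysed here. The enzyme genes Cyp11a1 and Cyp17a1, named after their values were seen, were each at 0 in 11 of 12 libraries. The cholesterol uptake receptor Scarb1 (34.7), the ferredoxin Fdx1 (12.8) and Star (1.08) were measured. Insl3, the next by mean (0.206), was at 0 in 8 of 12 libraries and reached 1.16 RPKM. The peritubular and interstitial list held the highest levels, with Col1a1 at a mean of 357 RPKM, Dcn at 69.4, Tagln at 56.3 and Acta2 at 15.5. In the granulosa list, which stands for the ovarian counterpart of Sertoli cells, Wnt4 (8.71) and Rspo1 (1.95) were the highest, and the other 3 of 5 listed genes stayed below 1 RPKM in every library. Foxl2, Cyp19a1 and Bmp2 of that list were not analysed here. In the endothelial and immune list 6 of 7 listed genes stayed below 1 RPKM, with Cd68 (2.94) as the exception.

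The labelled cell type was checked in the same way. Of 20 spermatogonial and germ cell markers, 18 were listed and 16 stayed below 1 RPKM in every library. Named after their values were seen, Ret, Nanos2, Pou5f1, Kit and Mael were at 0 in all 12 libraries, Ddx4 reached 0.07 RPKM and Dazl 0.04, and Gfra1, a GDNF receptor of spermatogonial stem cells, reached 0.17. Only Eomes (mean 1.42 RPKM) and Id4 (mean 1.296) passed 1 RPKM in any library. The summed RPKM of the 18 listed germ cell genes lay between 2.64 and 4.34 in a library, against 73.8 to 94.5 for the 9 listed somatic markers, a sum to which Wt1 and Gata6 gave the most. Most of the listed germ cell genes were therefore low in these libraries, while Eomes and Id4 had means near that of Kitl (1.45 RPKM). Sall4 and Utf1 of that list were not analysed here. The text below names the cells by their line.

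**Figure D2:**
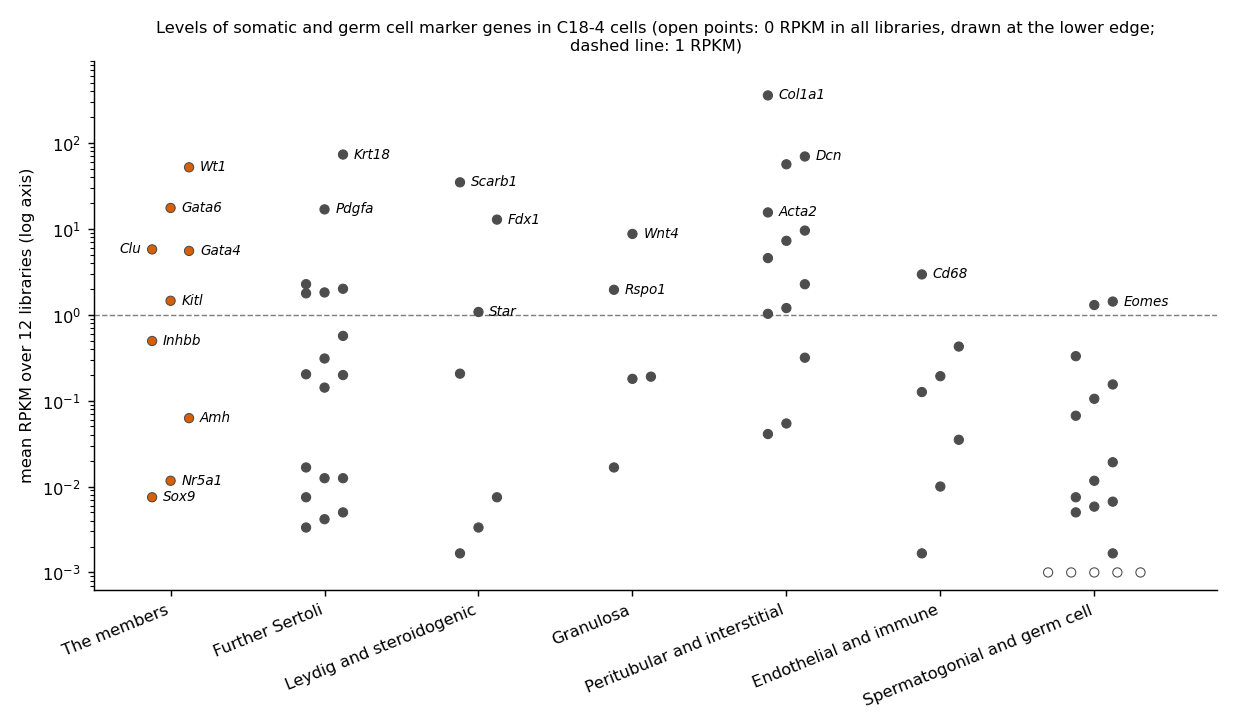
Mean RPKM over 12 libraries (vertical log axis) of each listed gene in 7 marker lists, with the 9 listed somatic markers in orange, open points for genes at 0 in all libraries and a dashed line at 1 RPKM. Wt1, Gata6, Clu, Gata4 and Kitl lie above the line, while Inhbb, Amh, Nr5a1 and Sox9 and 16 of the 18 listed germ cell genes lie below it.

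Differences between groups were tested with limma on log2(RPKM + 1) in 1 fit to all 12 libraries. The fit held the 11435 genes that reached 1 RPKM in 3 or more libraries, and Benjamini-Hochberg adjustment ran over all of them. A gene is said to have risen or fallen where its adjusted p did not exceed 0.05. The stricter limits in the study's own methods (adjusted p up to 0.001 and a log2 fold change of 1 or more in either direction) are given beside it. Wt1, Gata4, Gata6, Clu and Kitl were tested. Sox9, Nr5a1, Amh and Inhbb did not reach the minimum RPKM. Fold changes on this scale understate the change of genes with low RPKM. With 3 libraries against 3, an exact permutation test of a single gene cannot give a two-sided p below 0.1.

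Knockdown was compared with its control 3NC first, which asks how the cells changed when shRNAs against lncRNA5251 were present. Of the 5 markers tested, Clu and Kitl rose, Gata6 fell, and Wt1 and Gata4 did not pass the test. Across all genes tested 31.9% rose and 23.5% fell in this comparison (median log2 fold change 0.04), so 2 rises and 1 fall among 5 genes are close to what the whole table showed (median of the 5, 0.00). On the scale of log2(RPKM + 1) 0 of the 5 met the study's own limits (limma), which 1.57% of all genes tested met. With a pseudocount of 0.1 in place of 1, Clu met them (log2 fold change 1.04, adjusted p = 4.14e-06, limma). The share of all genes that met them at that pseudocount was not counted.

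Clu encodes clusterin, a secreted chaperone found in Sertoli cell fluid and in many other cells. It was at 3.13, 2.40 and 2.86 RPKM in the 3NC libraries and at 6.20, 6.47 and 4.90 in the KD libraries. Every knockdown library lay above every control library. The means were 2.80 ± 0.369 and 5.86 ± 0.839 RPKM (SD, n = 3), a ratio of 2.09, and the log2 fold change was 0.85 (SE 0.10, adjusted p = 4.8e-06, limma). Against the other control, 5NC, Clu did not pass the test and its log2 fold change lay below 0, at -0.20 (SE 0.10, adjusted p = 0.0990, limma).

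Kitl encodes the KIT ligand, which Sertoli cells present to KIT-bearing spermatogonia. Its RPKM was 1.17, 1.23 and 1.10 in 3NC and 1.74, 1.53 and 1.82 in KD, with no overlap between the groups. The ratio of the means was 1.45 and the log2 fold change was 0.31 (SE 0.08, adjusted p = 0.00448, limma), or 0.50 with a pseudocount of 0.1. Against 5NC the log2 fold change of Kitl in KD was -0.01 (95% interval -0.19 to 0.16, adjusted p = 0.918, limma), so this rise also depended on which control was used.

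Gata6 was at 14.7, 14.7 and 14.5 RPKM in 3NC and at 11.8, 12.3 and 12.9 in KD. All knockdown libraries lay below all control libraries. It fell by 0.23 on the log2 scale (SE 0.06, adjusted p = 0.00366, limma), from a mean of 14.6 to 12.3 RPKM. Against 5NC the log2 fold change was -0.72 (adjusted p = 6.11e-08, limma), so Gata6 was lower in the knockdown than in either control. An annotated transcript on the opposite strand, 1010001N08Rik, overlaps exons of Gata6, and the counting is not stated to use strand, so reads of both cannot be told apart.

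Gata4, a zinc finger factor that acts with WT1 and NR5A1 in the gonad, was at 4.84, 5.55 and 5.07 RPKM in 3NC and 4.97, 4.67 and 3.98 in KD, with overlapping groups. Its log2 fold change was -0.15 (95% interval -0.33 to 0.02, adjusted p = 0.120, limma). After quantile normalization it was -0.22 (adjusted p = 0.0296), and against 5NC it was -0.39 (adjusted p = 0.000683, limma). Wt1 was at 49.8, 50.0 and 51.1 RPKM in 3NC and at 50.8, 49.9 and 50.5 in KD. Its log2 fold change was 0.00, with a 95% interval from -0.09 to 0.09.

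The overexpression vector was compared with its own control next. In OV against 5NC, Kitl fell and the other 4 markers tested did not pass the test, while 8.07% of all genes tested rose and 13.9% fell (median log2 fold change -0.03 over all genes tested, 0.07 over the 5). On the scale of log2(RPKM + 1) none of the 5 markers met the study's own limits, nor did any of the 11435 genes tested (0.00%). The paper, with another test (DEGseq), reported genes that rose and genes that fell in OV. Of the genes tested here, 2518 passed the adjusted threshold of 0.05 (limma) and 4240 had an unadjusted p under 0.05. At an unadjusted p under 0.05, too, 0 of the 5 markers were higher and 1 was lower. Kitl was at 1.56, 1.84 and 1.75 RPKM in 5NC and at 1.10, 1.17 and 1.41 in OV, with every OV library below every 5NC library. It fell by 0.29 on the log2 scale (SE 0.08, adjusted p = 0.0244, limma), or by 0.46 with a pseudocount of 0.1, from a mean of 1.72 ± 0.143 to 1.23 ± 0.163 RPKM (SD, n = 3). This call was lost after quantile normalization (adjusted p = 0.0881), in a fit to the 6 libraries compared (0.0603), and without OV replicate 1 (0.104), OV replicate 2 (0.0881), 5NC replicate 2 (0.0940) or 5NC replicate 3 (0.0726), with limma in each case. The log2 fold changes in these fits lay between -0.29 and -0.21.

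The other tested markers did not pass the test between OV and 5NC. Wt1 was at 52.4, 54.7 and 57.5 RPKM in OV against 52.4, 53.1 and 51.5 in 5NC, a log2 fold change of 0.07 (95% interval -0.03 to 0.16). Gata6, at 23.7, 20.6 and 22.1 against 21.9, 20.7 and 20.1 RPKM, had a log2 fold change of 0.08 (95% interval -0.05 to 0.20). The groups overlapped for both genes. Clu was at 8.24, 7.72 and 6.69 RPKM in OV and 7.31, 6.66 and 6.49 in 5NC (log2 fold change 0.13, 95% interval -0.09 to 0.34). Gata4, at 6.43, 6.28 and 5.83 against 6.77, 5.77 and 6.14 RPKM, had a log2 fold change of -0.01 (95% interval -0.18 to 0.16). The overlap again covered both genes.

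The effects of knockdown and overexpression were compared directly, by subtracting the log2 fold change between OV and 5NC from that between KD and 3NC. Among the 5 markers tested this difference was above 0 for Clu and Kitl, below 0 for Gata6 and not called for Wt1 and Gata4, while over all genes tested 31.2% were called with a difference above 0 and 20.7% with a difference below 0. For Gata4 it was -0.15, and after quantile normalization it was -0.28 and called (adjusted p = 0.0484, limma). For Kitl the difference was 0.60 (SE 0.12, adjusted p = 0.000582, limma), with the effects themselves on opposite sides of 0, and it was 0.96 with a pseudocount of 0.1. For Clu it was 0.72 (SE 0.14, adjusted p = 0.000653) and for Gata6 it was -0.31 (SE 0.08, adjusted p = 0.00596). Each of these values holds both controls, which carry different vectors.

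**Figure D3:**
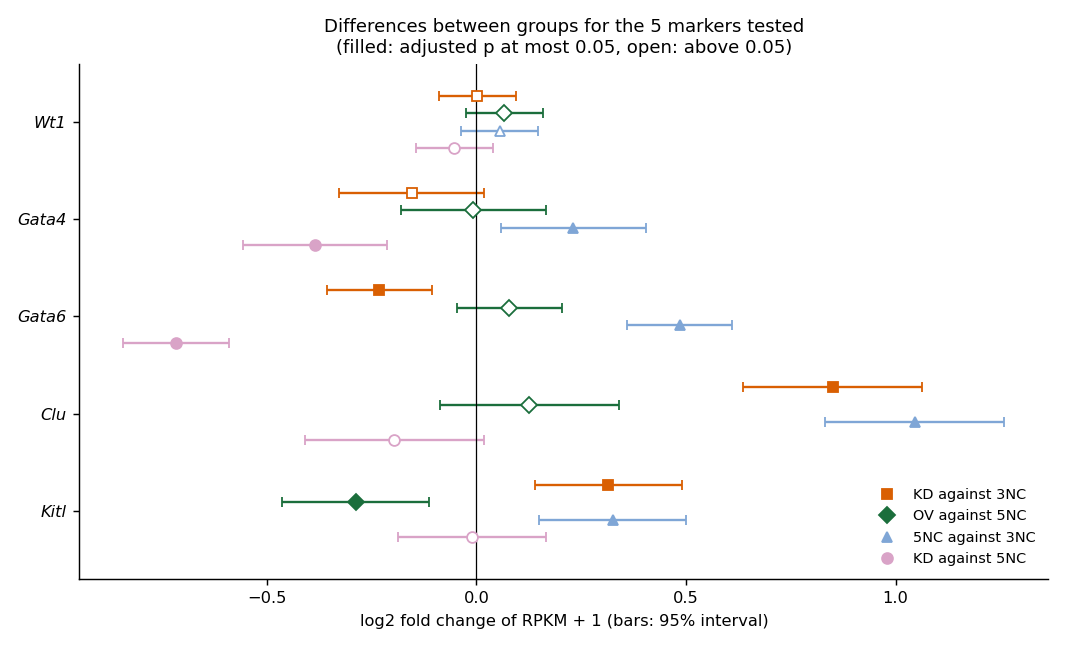
Log2 fold change of RPKM + 1 (horizontal axis) with its 95% interval for the 5 markers tested, in KD against 3NC, OV against 5NC, 5NC against 3NC and KD against 5NC. Filled symbols passed an adjusted p of 0.05, and the values of Clu and Kitl in KD lie on the right of 0 against 3NC and at or left of 0 against 5NC, while those of Gata6 lie on the left of 0 against both.

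The control groups were set against each other because the choice of control moved the values above. In 5NC against 3NC, Gata4, Gata6, Clu and Kitl rose, 0 fell (also 0 at an unadjusted p under 0.05, limma), and Wt1 did not pass the test. Across all genes tested 31.0% rose and 25.6% fell (median log2 fold change 0.02, and 0.33 over the 5 markers). Clu alone met the study's own limits, which 2.61% of all genes tested met. The groups differ in vector, in carrying an shRNA and in their culture, and these cannot be told apart.

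Clu, at 7.31, 6.66 and 6.49 RPKM in 5NC against 3.13, 2.40 and 2.86 in 3NC, had a ratio of 2.44 and a log2 fold change of 1.05 (SE 0.10, adjusted p = 4.78e-07, limma). Gata6, at 21.9, 20.7 and 20.1 against 14.7, 14.7 and 14.5 RPKM, rose by 42.8% (log2 fold change 0.49, SE 0.06, adjusted p = 5.7e-06, limma). In neither gene did the groups overlap. Kitl rose by a log2 fold change of 0.33 (SE 0.08, adjusted p = 0.00354, limma), or 0.52 with a pseudocount of 0.1, again without overlap, and its mean of 1.72 RPKM in 5NC was close to the 1.70 of KD. Gata4 had a log2 fold change of 0.23 (SE 0.08, adjusted p = 0.0240, limma), from a mean of 5.15 ± 0.362 to 6.23 ± 0.506 RPKM (SD, n = 3). Without 3NC replicate 1, 3NC replicate 3 or 5NC replicate 1 the adjusted p of Gata4 was 0.0943, 0.0642 or 0.111 (limma), at log2 fold changes of 0.19, 0.22 and 0.18, so the call was lost. Wt1 was 3.97% higher in 5NC on average, a log2 fold change of 0.06 (95% interval -0.04 to 0.15), and its groups did not overlap either.

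Inhbb had the largest relative difference between the controls among the markers with every library above 0. In the LV3 libraries its RPKM was 0.14, 0.19 and 0.11 (3NC) and 0.23, 0.28 and 0.19 (KD). In the LV5 libraries it was 0.69, 0.53 and 0.88 (5NC) and 0.87, 0.92 and 0.90 (OV). Every library with LV5 lay above every library with LV3. The mean of 5NC was 4.77 times that of 3NC. Without the filter on low values the log2 fold change of 5NC against 3NC was 0.56 (SE 0.06, adjusted p = 0.000113, limma), and it was 1.69 (adjusted p = 7.64e-05) with a pseudocount of 0.1, an alternative chosen after the data were seen. In the same unfiltered fit, Inhbb in KD against 3NC had a log2 fold change of 0.11 (adjusted p = 0.255) and in OV against 5NC of 0.16 (adjusted p = 0.141, limma). Values below 1 RPKM rest on few reads, whose number is unknown.

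For Amh the 3NC libraries had 0, 0 and 0.04 RPKM and the KD libraries 0, 0.08 and 0.04. With LV5 they had 0.14, 0.04 and 0.04 (5NC) and 0.14, 0.15 and 0.08 (OV). Neighbouring groups overlapped, and in the unfiltered fit the adjusted p was 0.568 for the knockdown, 0.377 for the overexpression and 0.175 between the controls (limma). Sox9 was listed at 0 in all libraries of 3NC and KD, at 0.02 in 1 library of 5NC and at 0.03, 0.02 and 0.02 in OV. Nr5a1 was at 0 in 2 of 3 libraries in each group. In the unfiltered fit Sox9 had an adjusted p of 0.0887 in OV against 5NC (0.0740 with a pseudocount of 0.1, limma). None of these 3 genes passed the test in any comparison.

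The order of the groups differed from marker to marker. Gata6 ran from KD over 3NC and 5NC to OV, and only the last neighbours, 5NC and OV, overlapped. For Gata4 the order was KD, 3NC, OV and 5NC, with overlap at both ends and a gap between 3NC and OV. Clu was lowest in 3NC, followed by KD, 5NC and OV, where 5NC and OV overlapped. Kitl formed a low pair, 3NC and OV, and a high pair, KD and 5NC, with overlap inside each pair and none between them. Wt1 kept to a narrow range from 50.3 ± 0.668 RPKM in 3NC to 54.9 ± 2.54 in OV (SD, n = 3).

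Genes with the most similar profile to each tested marker were sought by Pearson's correlation of log2(RPKM + 1) over the 12 libraries, among all 11435 genes tested. The points fall into 4 groups of 3 libraries, so that a correlation here also describes the order of the group means. Lmo4 (r = 0.99), Mrpl17 (0.99) and Rab32 (0.99) were closest to Gata6, and Lmo4 ran from 16.3 RPKM in KD over 22.1 in 3NC and 40.8 in 5NC to 43.5 in OV. For Clu they were 2310022B05Rik (0.985), Pigs (0.985) and Galnt2 (0.985), and for Kitl Erap1 (0.97), Pdpr (0.97) and Skap2 (0.97). Erap1 had low means in 3NC (5.43 RPKM) and OV (5.81) and high means in KD (7.66) and 5NC (8.38), the same pairs as Kitl. Gata4 was closest to Tm9sf4 (0.97), Evc2 (0.96) and B3gat3 (0.96), and Wt1, with little spread to follow, to Exoc1 (0.93), Thbs1 (0.89) and Trdmt1 (0.88).

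Members of the same gene families were then set beside the markers. Of the GATA factors, Gata3 (mean 6.69 RPKM), a factor better known from T cells and epithelia, and Gata2 (4.49) had levels near that of Gata4, and Gata1, named after its values were seen, did not exceed 0.43. Gata2 fell in KD against 3NC, from 5.37 to 4.09 RPKM (log2 fold change -0.32, adjusted p = 0.0016, limma), while Gata3 had a log2 fold change of 0.03 (adjusted p = 0.747). Gata2 was also lower in 5NC (4.42 RPKM) than in 3NC (log2 fold change -0.23, adjusted p = 0.0137, limma). Of the Sox genes closest to Sox9, Sox8 had 1.18 ± 0.0656 RPKM (3NC) and 1.07 ± 0.0929 (KD) with LV3, and 3.06 ± 0.267 (5NC) and 2.70 ± 0.0954 (OV) with LV5 (SD, n = 3). Sox8 rose in 5NC against 3NC (log2 fold change 0.90) and was not called in either of the other comparisons. Sox10, also named after its values were seen, reached 0.05 RPKM at most. Of the inhibin and activin subunits, Inhba (mean 5.79 RPKM) and Inha (1.77, named after its values were seen) were higher than Inhbb (0.494) in level. Inhba was also higher in 5NC (7.43 RPKM) than in 3NC (4.41), a log2 fold change of 0.64.

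The receptors, binding proteins and signal transducers of these products were counted as a list of 26 genes, of which 20 were tested. In KD against 3NC 7 rose, 3 fell and 10 did not pass the test, beside 31.9% and 23.5% of all genes tested that rose and fell. The median log2 fold change was 0.12, and 0.04 over all genes tested. The comparison of OV with 5NC gave 0 rises and 6 falls (limma, 1 and 8 at an unadjusted p under 0.05), with a median of -0.12, where 8.07% and 13.9% of all genes tested rose and fell. In 5NC against 3NC 7 rose and 4 fell, where the shares of all genes tested were 31.0% and 25.6%. The largest changes in KD were falls of Lrp8, a receptor that can take up clusterin, from 3.43 to 1.34 RPKM (log2 fold change -0.92, adjusted p = 2.85e-07, limma), and of Tgfbr3, the inhibin co-receptor betaglycan, from 7.01 to 3.43 (log2 fold change -0.85). Fstl3, which binds activins, rose from 0.780 to 1.46 RPKM (log2 fold change 0.47), and Gnas, the stimulatory G protein subunit used by the FSH receptor among many others, from 673 to 899 (log2 fold change 0.42). Gnas was at 866 RPKM in 5NC, above 3NC as well (log2 fold change 0.36, adjusted p = 2e-05, limma). Lrp8 was also lower in 5NC (0.547 RPKM) than in 3NC. The highest levels in the list were those of Gnas (mean 824 RPKM), the signal transducer Smad4 (43.9), the BMP receptor gene Bmpr1a (26.5) and the protease gene Adam17 (25.4). Kit, the receptor of the Kitl product, was at 0 in all 12 libraries, and the AMH receptor gene Amhr2, which like Kit was named after its values were seen, lay between 0.16 and 0.46 RPKM.

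**Figure D4:**
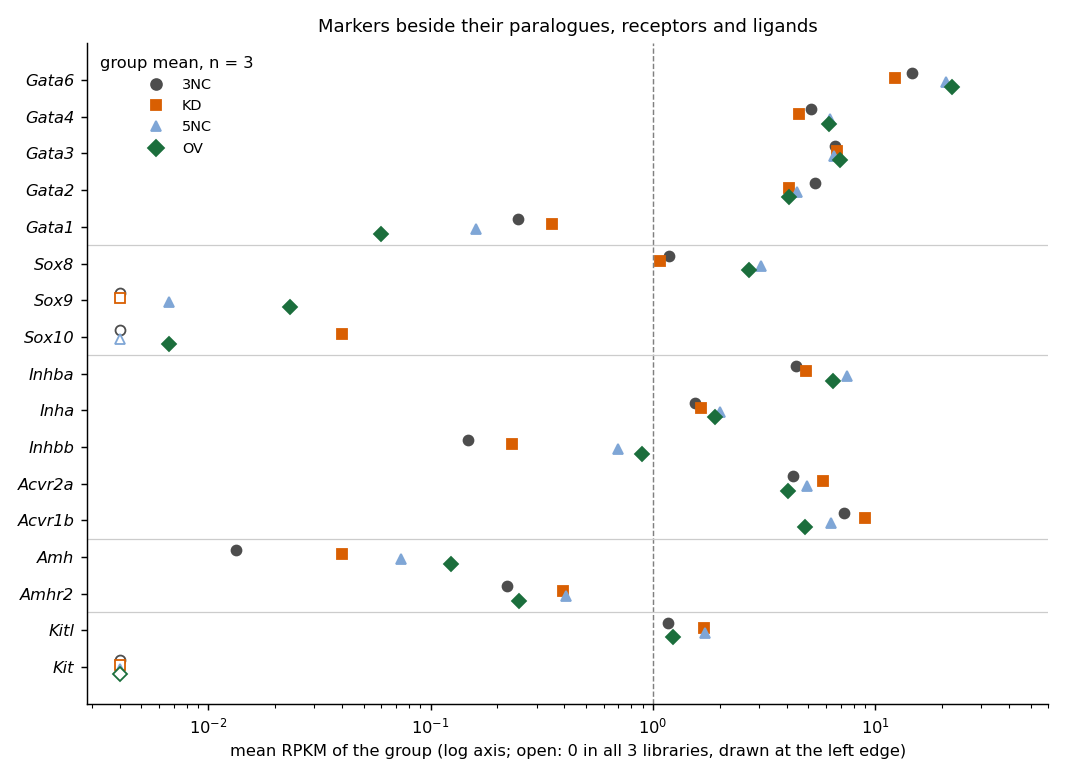
Mean RPKM of each group (horizontal log axis, n = 3 libraries) for the markers Gata6, Gata4, Sox9, Inhbb, Amh and Kitl beside related GATA, Sox and inhibin subunit genes and receptors. Gata3 and Gata2 lie near Gata4, Sox8 lies above 1 RPKM where Sox9 is at or near 0, Inhba lies above Inhbb in all 4 groups, and Kit is at 0.

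Regulators of the early gonad gave a mixed picture. Of 19 genes in that list 12 were tested, of which 3 rose, 3 fell and 6 did not pass the test in KD against 3NC (31.9% and 23.5% of all genes tested rose and fell, and the median log2 fold change of the list was -0.09). In 5NC against 3NC 5 rose and 0 fell (limma, 6 and 0 at an unadjusted p under 0.05), beside 31.0% and 25.6% of all genes tested. Six4, a homeobox gene, fell from 2.51 to 1.51 RPKM in KD (log2 fold change -0.49, adjusted p = 0.000638, limma). Insr and Igf1r, the receptors for insulin and IGF1, rose in KD, with log2 fold changes of 0.47 and 0.46. In OV against 5NC 1 gene of the list rose and 2 fell, beside 8.07% and 13.9% of all genes tested, and those that fell were Six4 (log2 fold change -0.34, adjusted p = 0.0257, limma) and Insr (-0.35). In KD against 3NC, Zfpm2, whose product FOG2 is a partner of GATA4, fell from 10.8 ± 0.111 to 8.21 ± 0.728 RPKM (SD, n = 3; log2 fold change -0.36, adjusted p = 0.000454, limma). It was not called in OV against 5NC (log2 fold change -0.13, adjusted p = 0.181, limma). Zfpm2 is named here as that partner, after its values were seen.

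Lists for other somatic cells were counted in the same comparisons. Of 10 tested peritubular and interstitial genes, 7 rose and 1 fell in KD against 3NC (31.9% and 23.5% of all genes tested, and a median of 0.34 on the log2 scale), and the largest rises were those of Acta2 (8.52 to 18.6 RPKM, log2 fold change 1.04), Dcn (21.6 to 36.1, 0.71), Col1a1 (256 to 367, 0.51) and Cnn1 (4.94 to 7.14, 0.45). The summed RPKM of the 13 listed genes of that list lay from 359.8 to 373 in 3NC, 465 to 551 in KD, 588 to 599 in 5NC and 592 to 642 in OV, a sum to which Col1a1 and Dcn gave the most. Like Clu it was lowest in 3NC, but the genes of the list did not share 1 direction. In 5NC against 3NC 5 rose and 4 fell (31.0% and 25.6% of all genes tested), with Dcn (log2 fold change 2.32), Acta2 (1.22) and Col1a1 (0.57) among the first and Cnn1 (-0.64) among the second. The 5NC means of Acta2 (21.2 RPKM), Col1a1 (381) and Dcn (112) were above those of KD. In OV against 5NC 0 rose and 1, Acta2 (-0.60), fell (limma, 2 and 3 at an unadjusted p under 0.05), beside 8.07% and 13.9% of all genes tested. The part of this list in the differences of Clu was not tested. In bulk RNA fewer cells of a type and less RNA per cell cannot be told apart.

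Among 6 tested genes of the further Sertoli list, Pdgfa (13.1 to 20.4 RPKM, log2 fold change 0.60) and Krt18 (67.5 to 97.7, 0.53) rose in KD against 3NC, where 31.9% of all genes tested rose, and the other 4 did not pass the test. In OV against 5NC 0 of the 6 passed it (limma, 3 had an unadjusted p under 0.05), where 8.07% of all genes tested rose and 13.9% fell. In 5NC against 3NC 2 rose and 2 fell, beside 31.0% and 25.6% of all genes tested. Rhox5, an androgen-regulated homeobox gene of Sertoli cells that is also active in many cultured lines, was lower in 5NC (0.913 RPKM) than in 3NC (2.89), with a log2 fold change of -1.02, and it was named after its values were seen. Fdx1 (log2 fold change 0.30) and Scarb1 (0.22) rose in KD among 3 tested Leydig and steroidogenic genes, Rspo1 (0.52) among 2 granulosa genes, while Cd68 (-0.70) fell as the 1 tested endothelial and immune gene, where 23.5% of all genes tested fell. In 5NC against 3NC, too, Pdgfa (0.46), Fdx1 (0.29) and Rspo1 (0.39) rose and Cd68 (-0.92) fell. Krt18 (-0.15) fell there and Scarb1 (-0.06) was not called. Of the 2 tested germ cell genes, Id4 fell in KD, from 1.56 to 0.933 RPKM (log2 fold change -0.40, adjusted p = 0.00143, limma), and Eomes had a log2 fold change of 0.04 (adjusted p = 0.800).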

How the data were processed

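RNA-seq of 12 C18-4 libraries was examined, 3 in each of the groups 3NC, KD, 5NC and OV, with groups and replicate numbers taken from the sample titles. The authors deposited values without a named unit, taken here as RPKM, which their methods describe as reads mapped to reference genes with SOAPaligner and scaled to gene length and library size. Which genome build and gene set they used is not given in the sources used here, so no coordinates are printed.

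From these values log2(RPKM + 1) was computed, and 1 group-means model for all libraries was fitted in limma (version 3.58.1, R 4.3.3; eBayes with trend). limma replaced the authors' test, DEGseq, which needs read numbers. The fit was tested on simulated data. Plots used matplotlib 3.10.9 (Python 3.11.15). The 10 members and the other lists were chosen with earlier results of these data known. Genes named are the members, up to 4 called genes per list with the largest change in KD, up to 4 with the highest mean, and the 3 most similar profiles per member, and others are marked as chosen after their values were seen. A gene that this rule names is not reported here. Antisense overlaps come from the GENCODE M21 annotation.

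The alternatives were another pseudocount, other filters, quantile normalization, fits to fewer libraries, a replicate block, 5NC as the control and the study's limits.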

Additional observations from a re-analysis of the deposited data

Results flagged for a closer look

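The effects of knockdown and overexpression, each against its own control, differed for 3 of the 5 markers tested (limma, a test of the difference itself, adjusted p of at most 0.05), where 31.2% of all genes tested were called above 0 and 20.7% below 0. The difference of log2 fold changes was -0.31 for Gata6, 0.72 for Clu and 0.60 for Kitl. With a pseudocount of 0.1 it was -0.33, 0.90 and 0.96, so that the order of Clu and Kitl changed. For Kitl the effects lay on opposite sides of 0. Outlying samples were not searched for in groups of 3 libraries.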

How the results depend on the processing

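Under the study's own limits (adjusted p up to 0.001, log2 fold change of 1 or more in either direction) the number of markers called was 0 in place of 3 in KD against 3NC, 0 in place of 1 in OV against 5NC, 1 in place of 4 in 5NC against 3NC and 0 in place of 3 for the difference of effects, with both limits stricter at once. These counts are on log2(RPKM + 1), and with a pseudocount of 0.1 Clu met the limits in KD against 3NC (log2 fold change 1.04), where the share of all genes was not counted. The single call of OV against 5NC, Kitl, became 0 after quantile normalization and in a fit to the libraries compared, and ranged from 0 to 1 when each library was left out, and the cause was not tested. With 5NC as the control of KD, the log2 fold changes of Clu (-0.20) and Kitl (-0.011) lay below 0 and neither passed the test. Same-numbered libraries of the groups compared had correlations of their deviations from the group means between -0.18 and 0.18, so the numbers were not taken to pair them. With the replicate block the counts were 3, 1, 4 and 3, as without it, and it changed no call of a marker. The other alternatives, including a pseudocount of 0.1 with or without the filter, kept each count at an adjusted p of 0.05 within 1.5 times. The markers called could still change. With 5NC as the control of KD they were Gata4 and Gata6. Quantile normalization added Gata4 in KD against 3NC and in the difference of effects. Fits without the filter added Inhbb in 5NC against 3NC. A pseudocount of 0.1 moved the log2 fold change of Kitl to 0.50 in KD, to -0.46 in OV, to 0.52 in 5NC against 3NC and to 0.96 for the difference of effects. Depth in reads is unknown, so no floor can be given for Sox9, Nr5a1 and Amh.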
